A study of Mus musculus with 7 samples.

Results

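Genes whose symbol begins with Kcn, which encode potassium channel pores and their auxiliary subunits, were examined in HopX-positive cells sorted from mouse brain. The expression table held 91 such rows among 24978 genes, and the 49 that reached at least 1 TPM (an expression level scaled to transcript length and to the library's total) in at least 2 of 7 libraries were kept. Of the 42 rows left out, 17 reached 1 TPM in a single library and 25 in none. The 49 genes were 6 inward rectifiers, 5 two-pore (K2P) channels, 7 pores of the calcium-activated family with 2 of their auxiliary subunits, and 20 voltage-gated pores with 9 of theirs. The calcium-activated family as counted here includes the sodium-activated relatives Kcnt1 and Kcnt2 and the sperm channel Kcnu1. Because the minimum level was part of the choice, 6 of the 49 genes reached 1 TPM in libraries of a single stage (1 at E15, 1 at P3 and 4 in the adult).

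RNA was sequenced from embryonic day 15 (E15, n = 2, replicates 1 and 2), postnatal day 3 (P3, n = 2, replicates 1 and 3) and adult mice (n = 3, replicates 1, 2 and 3), all C57BL/6 and all labelled as neural progenitor cells sorted by FACS for HopX, a homeodomain protein of radial glia, neural stem cells and astrocytes. The labels give no brain region, no further genotype or treatment, no age in weeks for the adults and no means by which HopX was detected, and nothing says that replicates came from separate animals. The p-values therefore measure only the spread between these libraries, which may be technical. Hopx itself stood at 62.9 and 60.5 TPM in E15 libraries, 171 and 112 TPM in P3 libraries, and 220, 249 and 230 TPM in adult libraries.

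Potassium channels set the resting potential and end the action potential. In astrocytes, inward rectifiers and two-pore channels give the membrane its high resting potassium conductance, and the rectifier Kcnj10 takes up potassium that active neurons release. Voltage-gated channels open on depolarization and shape firing in neurons, and calcium-activated channels couple the membrane potential to calcium inside the cell.

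Marker RNA of several cell types was present, and its level differed between stages. Of 10 radial glia and neural stem cell markers, Fabp7 alone was 4829 and 4020 TPM in E15 libraries, then 21682 and 13691 TPM by P3, and 1829 to 2310 TPM in adults, whereas the other 9 summed to 1362 and 1287 TPM, 929 and 1062 TPM, and 632 to 693 TPM. The 14 astrocyte markers summed to 800 to 990 TPM at E15 (10 to 12 of 14 at 1 TPM or more), 4442 to 6994 TPM at P3 and 17968 to 20241 TPM in the adult (14 of 14 in each library of these stages). Aldoc alone was 7925 to 9079 TPM in the adult. The other 13 summed to 290 to 328 TPM at E15, 2473 to 4261 TPM at P3 and 10040 to 11160 TPM in the adult. Not every marker rose after P3. Gfap was 361 and 161 TPM at P3 and 105 to 110 TPM in the adult, and Aqp4 and Aldh1l1 overlapped between these stages. The 10 immature neuron markers summed to 1979 to 2286 TPM at E15 (10 of 10 at 1 TPM or more), 260 TPM in P3 replicate 1 (7 of 10), 1187 TPM in P3 replicate 3 (10 of 10) and 78.9 to 134 TPM in adult libraries (7 of 10). The 10 mature oligodendrocyte markers summed to 719, 82.0 and 497 TPM in Adult replicates 1, 2 and 3, with 10, 3 and 10 of them at 1 TPM or more. In Adult replicate 2, Cnp alone was 74.2 TPM. The 10 mature neuron markers summed to 195, 48.2 and 159 TPM in the same libraries, of which Snap25 was 140.4, 34.5 and 126.5 TPM. The 12 microglia markers summed to 5.28 to 5.99 TPM at E15 and 420 to 579 TPM in the adult. The sum of the 9 mural markers was highest at P3 (78.1 to 118 TPM, against 11.35 to 13.55 TPM at E15 and 14.3 to 24.6 TPM in the adult). Rgs5 alone was 86.1 and 51.6 TPM at P3, and the other 8 summed to 31.5 and 26.5 TPM there. Single mural markers differed, with Pdgfrb highest in the adult (7.14 to 11.6 TPM) and Notch3 at E15 (1.89 and 2.08 TPM). The ependymal markers other than Rarres2 (6 genes) summed to 12.2 and 17.2 TPM at E15, 290 to 410 TPM at P3 and 24.1 to 29.7 TPM in the adult. Rarres2 itself was 177 to 258 TPM in the adult. The 5 choroid plexus markers summed to 3.15 to 28.9 TPM over all libraries, with Ttr listed at 0 at E15 and Clic6 in the adult, and the endothelial markers other than Pecam1 (8 genes) to 1.99 to 8.58 TPM, with Cldn5 listed at 0 at E15 and P3, while Pecam1 was 87.7 to 186 TPM. Red blood cell markers reached 5125 TPM in E15 replicate 1 against 16.1 to 59.8 TPM in the other libraries. How far these other cells took part in the changes of the potassium channel genes was not tested, and in bulk RNA fewer cells of a type and less RNA per cell cannot be told apart.

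Promoters are shown here for 4 genes, 2 that were higher and 2 that were lower in the adult than at E15. The values that follow can thus be read beside the sequence of the start region. The windows, from RefSeq on GRCm38.p6, run from 250 bases before to 50 bases after the annotated start, 5′ to 3′ on the gene's strand. Capitals mark the NFI half-site TTGGC and the SOX core ACAAT, each searched on both strands (GCCAA and ATTGT on the other strand), with no overlap between matches. NFI and SOX proteins are transcription factors of glial development. Kcnj10 (chr1:172340960-172341259, plus strand) had 21 CpG dinucleotides and 2 NFI half-sites. Kcnk1 (chr8:125994852-125995151, plus strand) had 10 CpG, 1 NFI half-site and 2 SOX cores. Kcnh7 (chr2:63184238-63184537, minus strand) had 21 CpG and 1 NFI half-site. Kcne1l (chrX:142306149-142306448, minus strand) had 12 CpG and 2 NFI half-sites.
Kcnj10: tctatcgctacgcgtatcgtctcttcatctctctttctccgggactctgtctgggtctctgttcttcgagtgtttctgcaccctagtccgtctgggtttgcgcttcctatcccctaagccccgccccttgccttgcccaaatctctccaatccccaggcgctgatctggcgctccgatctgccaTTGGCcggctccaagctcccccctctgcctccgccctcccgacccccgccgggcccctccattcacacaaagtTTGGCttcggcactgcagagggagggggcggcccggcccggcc
Kcnk1: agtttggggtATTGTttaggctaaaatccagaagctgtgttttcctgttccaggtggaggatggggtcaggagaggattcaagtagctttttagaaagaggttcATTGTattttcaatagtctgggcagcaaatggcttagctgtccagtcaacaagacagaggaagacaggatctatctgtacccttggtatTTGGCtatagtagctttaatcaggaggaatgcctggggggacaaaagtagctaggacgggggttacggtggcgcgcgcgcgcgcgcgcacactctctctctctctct
Kcnh7: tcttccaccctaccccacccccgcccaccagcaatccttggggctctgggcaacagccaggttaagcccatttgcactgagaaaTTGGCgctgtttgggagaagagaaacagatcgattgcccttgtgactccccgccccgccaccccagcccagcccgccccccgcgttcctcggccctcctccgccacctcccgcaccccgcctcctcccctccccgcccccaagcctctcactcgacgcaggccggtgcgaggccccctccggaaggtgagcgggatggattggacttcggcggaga
Kcne1l: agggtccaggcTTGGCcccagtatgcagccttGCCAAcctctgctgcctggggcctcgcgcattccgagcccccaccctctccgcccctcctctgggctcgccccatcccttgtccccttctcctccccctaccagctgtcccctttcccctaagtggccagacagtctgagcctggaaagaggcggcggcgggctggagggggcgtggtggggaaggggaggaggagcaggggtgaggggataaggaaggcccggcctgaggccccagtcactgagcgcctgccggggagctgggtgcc
A window was given for 35 of the 49 genes (57 windows, since a gene may have several starts). An NFI half-site lay in 52.6% of these windows and in 46.7% of all 32851 windows of the same length, and a SOX core in 21.1% and 31.0%. These matches are short letters that many promoters hold, and they do not mark a bound site. The median GC content was 59.7% for these windows and 52.7% for all.

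**Figure D1:**
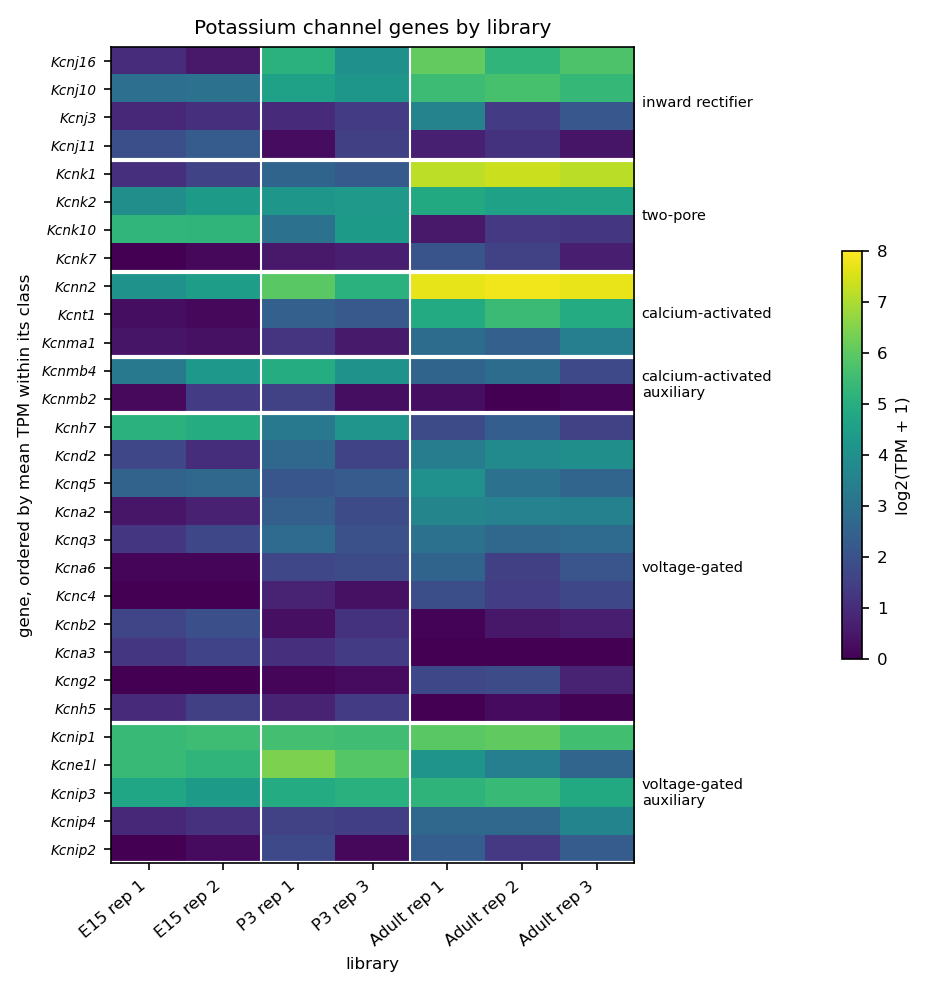
Level of 29 potassium channel genes, those that passed in any comparison or were among the 3 highest of their class (rows, grouped by class and ordered by mean), in the 7 libraries (columns), as log2(TPM + 1) from 0 (dark) to 8 (bright). Kcnk1 and Kcnn2 are brightest in the 3 adult libraries, Kcnk10 and Kcnh7 are brightest at E15, and Kcnip1 and Kcnip3 are similar in all columns.

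Summed over all 91 rows, potassium channel transcripts went from 281 and 304 TPM at E15 to 429 and 346 TPM at P3, with 789, 763 and 689 TPM in adult libraries, without overlap between stages. These sums are descriptions by library and were not tested. The composition changed as well as the total. Calcium-activated pores made up 7.95% and 10.1% of the total at E15 and 31.4% to 36.9% in the adult, and their sum went from 26.5 ± 5.9 TPM (SD, n = 2) to 261 ± 17.5 TPM (SD, n = 3). Inward rectifiers went from 17.4 ± 0.86 TPM (SD, n = 2) at E15 to 52.7 ± 14.0 TPM (SD, n = 2) at P3 and 108 ± 19.0 TPM (SD, n = 3) in the adult. Two-pore channels were lower at P3, 34.8 and 45.0 TPM, than at E15, 57.2 and 61.9 TPM, and stood at 181, 192 and 170 TPM in the adult. In unscaled TPM, the sum of voltage-gated pores differed little between E15 and the adult, which overlapped. It was 63.4 and 59.2 TPM before birth at E15, then 49.4 and 48.1 TPM by P3, and 80.5, 60.7 and 58.8 TPM in adults. Scaling by median of ratios removed this overlap. The scaled sums were 55.6 and 49.0 for the E15 pair, below the adult values of 80.0, 63.7 and 67.0. The share of voltage-gated pores in the total nevertheless went from 22.5% and 19.4% at E15 to between 7.95% and 10.2% in the adult. Auxiliary subunits of voltage-gated channels summed to 111 and 112 TPM, 174 and 144 TPM, and 144, 130 and 102 TPM in the same order of stages, and those of calcium-activated channels went from 32.8 and 17.1 TPM at P3 to 2.87 to 6.70 TPM in the adult.

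**Figure D2:**
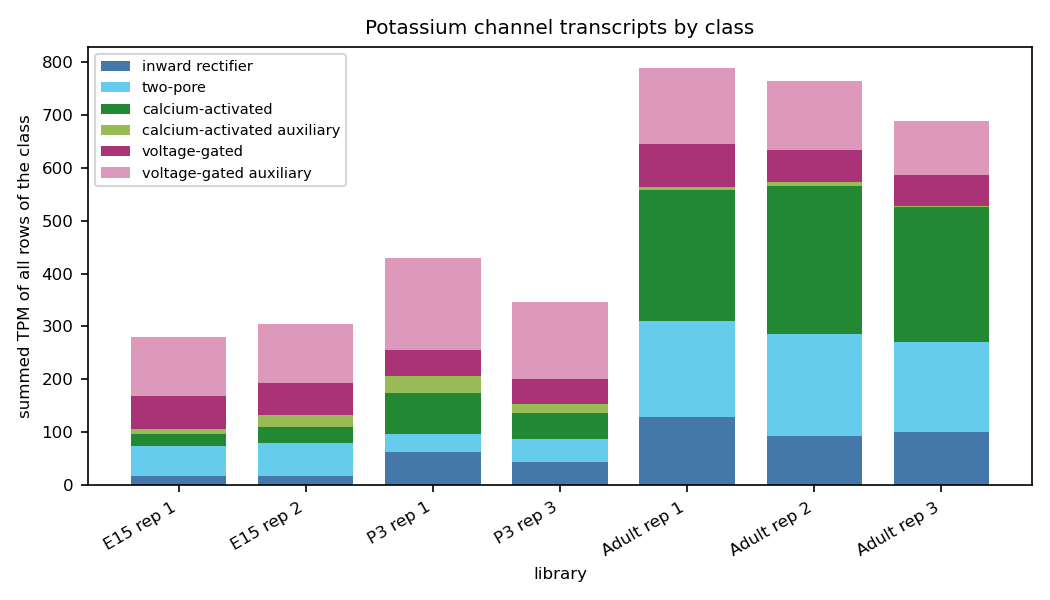
Summed TPM of all rows of each class (stacked bars) in each library. The 3 adult bars reach 689 to 789 TPM against 281 and 304 TPM at E15, mostly through the calcium-activated, two-pore and inward rectifier segments.

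Change between stages was tested for each gene with limma on log2(TPM + 1) over all 15931 genes tested, with Benjamini-Hochberg (BH) adjustment and an adjusted p under 0.05. Changes on this scale understate those of genes with low values. From E15 to P3, 4 of 49 potassium channel genes rose (8.16%, against 5.56% of all genes tested) and 0 fell (against 1.08%), beside 6.63% of all genes changed either way, so the share of rising genes lies near the background. At an unadjusted p under 0.05 by limma, 8 of the 49 were higher and 5 lower, beside 1963 and 1794 of all 15931 genes tested. Between P3 and the adult, 8 rose (16.3%, against 8.39% of all genes) and 5 fell (10.2%, against 13.8%), beside 22.2% changed either way. Over the whole span from E15, 15 were higher in the adult (30.6%, against 15.4% of all genes) and 7 lower (14.3%, against 24.7%), beside 40.1% changed either way. The 15 include 3 genes, Kcnk7, Kcnc4 and Kcng2, that reached 1 TPM only in adult libraries, so their being higher there was in part fixed by the minimum level. In all, 23 genes passed in at least 1 comparison and 26 in none. The matching share of all genes tested was not computed, so these counts say nothing particular to channel genes. Any pair of these comparisons shares a stage, so their counts are not independent.

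The median log2 change of the 49 genes was 0.46 for P3 against E15, 0.28 for the adult against P3 and 0.41 for the adult against E15, and over all genes tested it was -0.15, -0.13 and -0.30. Median-of-ratios scaling moved the median of all genes to -0.004, -0.027 and -0.048, and with it 19 potassium channel genes rose and 5 fell from E15 to the adult, beside 19.3% and 17.1% of all genes. The counts also rest on single libraries. A call described as lost without a library did not pass in a fit that left out that library alone. Changes lost with replicate number as a further term (a replicate block), or with neither Adult replicate 1 nor 3, are not listed with each gene. The closing section names them. Without either E15 library, or without P3 replicate 1, fewer channel genes rose from E15 to P3. Without P3 replicate 3, fewer rose and fewer fell from P3 to the adult, and without P3 replicate 1 fewer fell. The share of all genes that passed was lower in each of these fits as well, so the lower counts are not particular to channel genes. Leaving out Adult replicate 1, 2 or 3 gave 11, 14 and 17 rising and 4, 7 and 5 falling genes from E15 to the adult. Beside them stood 14.8%, 15.5% and 15.6% of all genes rising and 24.4%, 23.8% and 22.7% falling. Both counts, and both shares of all genes, were lower without either E15 library.

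Among inward rectifiers, the glial pair Kcnj10 and Kcnj16 carried the increase. Kcnj10 (ENSMUSG00000044708), the main potassium uptake channel of astrocytes, which oligodendrocytes also use, was 6.54 and 6.99 TPM in E15 libraries, 23.0 and 17.7 TPM in P3 libraries, and 43.9, 49.9 and 39.5 TPM in adult libraries. The stages did not overlap. The first step added a log2 change of 1.45 (SE 0.262) and the second 1.10 (SE 0.240; limma, BH-adjusted p = 0.0155 and 0.0139), making 2.54 (SE 0.240) over the whole span (limma, BH-adjusted p = 0.000131). The first step was not called without any of E15 replicate 1, E15 replicate 2 and P3 replicate 1 (limma, BH-adjusted p = 0.0981, 0.0958 and 0.160), and the second not without P3 replicate 3 (limma, BH-adjusted p = 0.118).

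Kcnj16 encodes a subunit that conducts little alone and joins Kcnj10 in a channel sensitive to pH. Its levels were 1.02 and 0.476 TPM before birth at E15, then 33.9 and 15 TPM by P3, and 66.8, 36.3 and 53.8 TPM in adults. All postnatal libraries lay far above both E15 libraries, and the adult lay above P3. The larger log2 change was in the first step, 3.77 (SE 0.448; limma, BH-adjusted p = 0.00217) against 1.13 (SE 0.409; limma, BH-adjusted p = 0.0837) in the second, and 4.91 (SE 0.409; limma, BH-adjusted p = 7.4e-05) over both. The TPM of Kcnj16 divided by that of Kcnj10 was 0.156 and 0.0681 at E15 and 0.727 to 1.52 in the 5 postnatal libraries. Transcripts of the partner subunit were thus scarce relative to Kcnj10 before birth and similar in level after it. P3 replicate 3, with more immature neuron marker RNA than P3 replicate 1, was lower in Kcnj16 by 1.12 on the log2 scale.

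The other rectifiers were low. Kcnj11, the pore of the ATP-sensitive channel, was 2.91 and 3.97 TPM in E15 libraries, 0.214 and 1.88 TPM in P3 libraries, and 0.645, 1.23 and 0.363 TPM in adult libraries. Every later library was below E15. It fell by 1.37 on the log2 scale from E15 to the adult (limma, BH-adjusted p = 0.0447), a call lost without either E15 library, without Adult replicate 1 or without Adult replicate 3 (limma, BH-adjusted p = 0.0776 to 0.217). The Kcnj11 call was also lost with a pseudocount of 0.1 TPM, no filter, median-of-ratios scaling or quantile normalization (limma, BH-adjusted p = 0.0765 to 0.0995). Kcnj3, a G-protein-gated rectifier of neurons, was 0.860 and 1.152 TPM before birth at E15, then 0.965 and 1.70 TPM by P3, and 10.9, 1.66 and 3.46 TPM in adults, the highest value being in Adult replicate 1, and it did not pass in any comparison. Kcnj13, a rectifier of choroid plexus and retinal pigment epithelium, ranged from 0.364 to 3.62 TPM and also did not pass. Kcnj6, another G-protein-gated rectifier, was at most 0.0413 TPM at E15, 1.87 and 1.42 TPM at P3 but at most 0.826 TPM in the adult. It reached 1 TPM only in P3 libraries, through which it met the minimum level, so it is given as values alone.

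Among two-pore channels, the dominant gene differed between E15 and the adult. Kcnk1, also called TWIK-1, a leak channel subunit abundant in astrocytes, was 1.149 and 2.10 TPM in E15 libraries, 5.04 and 3.81 TPM in P3 libraries, and 147, 164 and 143 TPM in adult libraries. The stages did not overlap, and the adult libraries differed little among themselves. The larger log2 change was in the second step, with 1.06 (SE 0.293; limma, BH-adjusted p = 0.0721) before P3 and 4.82 (SE 0.268; limma, BH-adjusted p = 7.73e-05) after it. Over the whole span it was 5.88 (SE 0.268; limma, BH-adjusted p = 4.64e-06), the largest increase among the 49 genes at this pseudocount. With a pseudocount of 0.1 TPM, Kcnt1 led with 6.92 against 6.51 for Kcnk1. Kcnj16 had its larger log2 change before P3 and Kcnk1 after it, although the difference between the steps was not tested for either gene.

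Kcnk10, TREK-2, a channel opened by stretch, lipids and heat, moved the other way. It was 37.1 and 36.8 TPM before birth at E15, then 7.05 and 19.6 TPM by P3, and 0.462, 1.52 and 1.42 TPM in adults. No library of a later stage reached the level of an earlier one. Kcnk10 fell by 2.64 on the log2 scale (SE 0.459; limma, BH-adjusted p = 0.00548) after P3 and by 4.20 (SE 0.459; limma, BH-adjusted p = 0.000267) over the whole span. The estimate from E15 to P3 was -1.56 (SE 0.503; limma, BH-adjusted p = 0.111), and the fall from P3 was not called without P3 replicate 3 (limma, BH-adjusted p = 0.0573). The P3 libraries differed by a log2 value of 1.36, with replicate 3 higher, the library that also held more immature neuron marker RNA. Within two-pore TPM, Kcnk10 made up 64.8% and 59.5% at E15 and at most 0.835% in the adult, whereas Kcnk1 made up 2.01% and 3.40% at E15 and 81.5% to 85.2% in the adult. Kcnk1 thereby stood at 0.0310 and 0.0571 times Kcnk10 at E15 and at 101 to 319 times in the adult.

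Kcnk2, TREK-1, is the close relative of Kcnk10. Its levels were 14.6 and 19.7 TPM in E15 libraries, 17.9 and 18.8 TPM in P3 libraries, and 27.9, 22.8 and 23.6 TPM in adult libraries. The P3 values lay between those of E15, and the adult lay slightly above both. None of the comparisons passed, and the 95% interval of the log2 change ran from -0.50 to 0.72 for P3 against E15 and from -0.04 to 1.07 for the adult against E15. Of the remaining pair, Kcnk7, which gives no current of its own in expression systems, was 0 and 0.120 TPM before birth at E15, then 0.452 and 0.577 TPM by P3, and 3.19, 1.93 and 0.597 TPM in adults. It reached 1 TPM only in adult libraries, through which it met the minimum level, so its change is given as values alone. Kcnk6, TWIK-2, ranged from 0.551 to 1.91 TPM and did not pass.

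**Figure D3:**
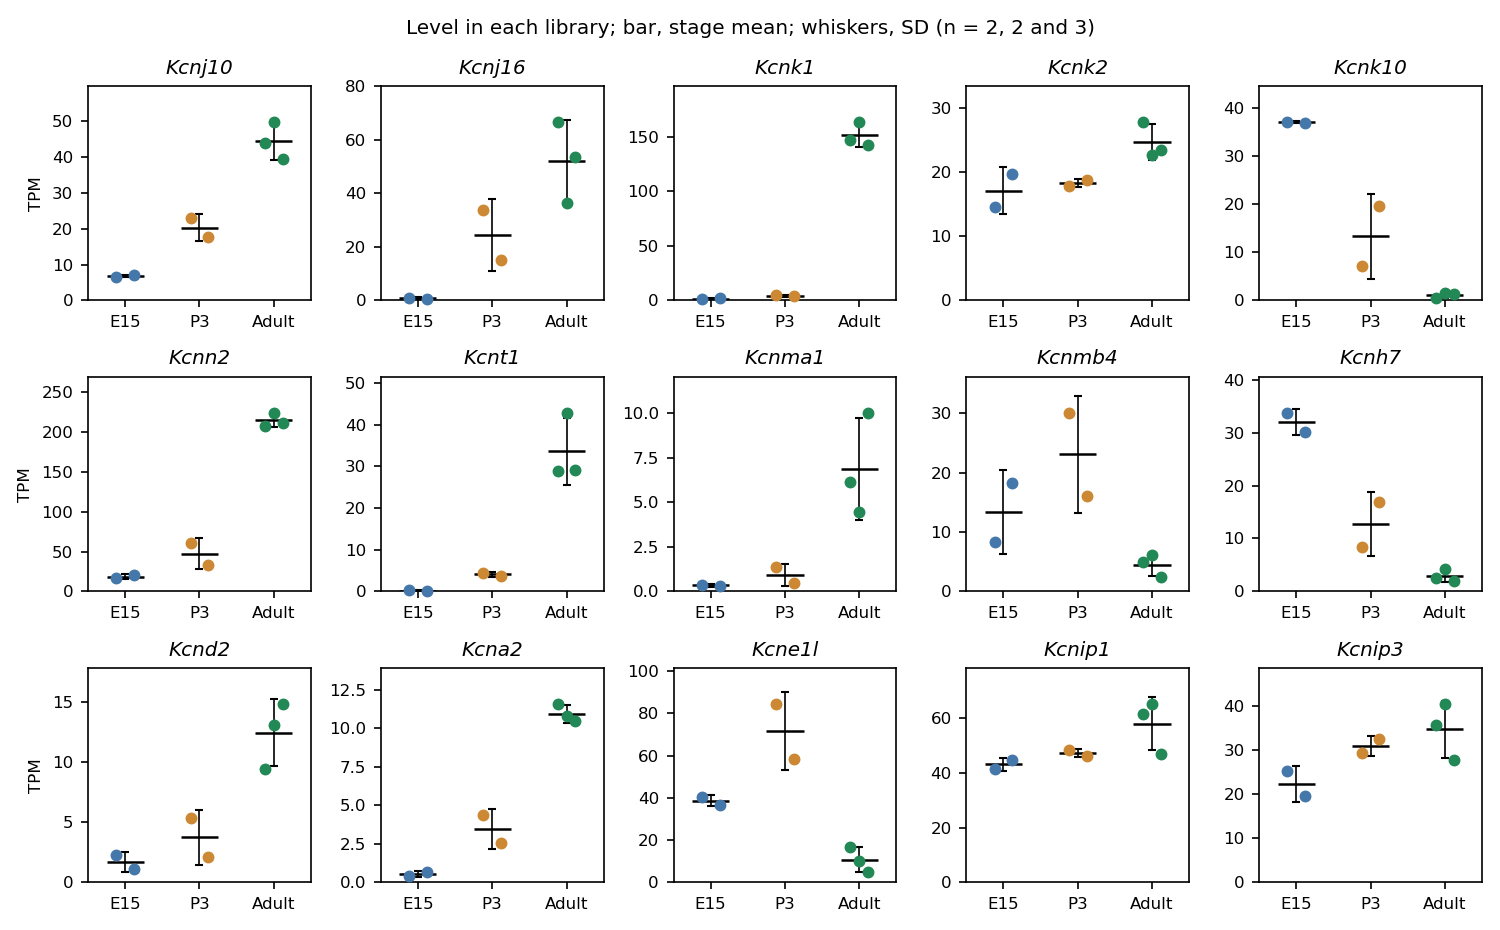
Level in TPM (linear axes that start at 0) of 15 potassium channel genes in each library, with stage means (bars) and SD (whiskers; n = 2, 2 and 3). Kcnk1 reaches 143 to 164 TPM only in the adult, Kcnk10 and Kcnh7 descend from E15, and Kcne1l peaks at P3 with 84.5 and 58.4 TPM.

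Among pores of the calcium-activated family, Kcnn2, Kcnt1 and Kcnma1 rose and none fell. Kcnn2 encodes SK2, a small-conductance channel opened by calcium through calmodulin, best known for the afterhyperpolarization of neurons. It was 16.4 and 20.8 TPM in E15 libraries, 61.1 and 33.7 TPM in P3 libraries, and 207.9, 224.1 and 211.5 TPM in adult libraries. It was the most abundant of the 49 genes in every adult library, and the stages did not overlap. Its log2 change was 1.25 (SE 0.281; limma, BH-adjusted p = 0.0374) in the first step, 2.21 (SE 0.257; limma, BH-adjusted p = 0.00107) in the second and 3.47 (SE 0.257; limma, BH-adjusted p = 4.27e-05) over both. The first of these held without P3 replicate 3 and was lost when any other library was left out (limma, BH-adjusted p = 0.0542 to 0.225), with no filter, without the trend or in a fit on E15 and P3 alone (limma, BH-adjusted p = 0.0673 to 0.0898). Kcnn2 made up 67.8% to 84.0% of calcium-activated TPM in every library, so the rise of the class was largely its own.

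Kcnt1, a channel opened by internal sodium, was almost unmeasured at E15, 0.233 and 0.125 TPM, and stood at 4.42 and 3.72 TPM at P3, with 28.8, 42.8 and 29.1 TPM in adult libraries. Each stage lay wholly above the one before. It rose by a log2 change of 2.10 (SE 0.355; limma, BH-adjusted p = 0.0118) to P3, a further 2.75 (SE 0.325; limma, BH-adjusted p = 0.00119) to the adult, and 4.85 (SE 0.325; limma, BH-adjusted p = 2.68e-05) over the whole span. The first step was not called without either E15 library or P3 replicate 1, or with a pseudocount of 5 TPM (limma, BH-adjusted p = 0.0590 to 0.116). Kcnma1, the pore of the large-conductance (BK) channel, was 0.380 and 0.294 TPM before birth at E15, then 1.37 and 0.494 TPM by P3, and 6.12, 4.48 and 10.03 TPM in adults. The adult libraries stood apart from all others. Its log2 change was 2.003 (SE 0.422; limma, BH-adjusted p = 0.0121) from P3 to the adult, lost without P3 replicate 3 (limma, BH-adjusted p = 0.115), and 2.498 (SE 0.422; limma, BH-adjusted p = 0.00230) from E15 to the adult.

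The main BK auxiliary subunit fell from P3 to the adult, while its pore rose. Kcnmb4, the neuronal beta subunit that slows BK gating, was 8.34 and 18.3 TPM in E15 libraries, 30.1 and 16.1 TPM in P3 libraries, and 4.97, 6.11 and 2.37 TPM in adult libraries. The E15 and P3 values overlapped, and all adult values lay lower. It fell by a log2 change of 2.14 (SE 0.476; limma, BH-adjusted p = 0.0149) from P3 to the adult, a call lost without either P3 library (limma, BH-adjusted p = 0.111 without replicate 1 and 0.0510 without replicate 3) and with no filter (limma, BH-adjusted p = 0.0534). From E15 to the adult it was lower by 1.36 without passing (limma, BH-adjusted p = 0.0506). The remaining members of the family were at or below 5.04 TPM and did not pass. Kcnn3, the related SK3 channel, ranged from 2.07 to 4.06 TPM, and its log2 change from E15 to the adult was -0.15 with a 95% interval of -0.99 to 0.69. Kcnu1 was at 0, 5.04 and 0.584 TPM in Adult replicates 1, 2 and 3, the sodium-activated Kcnt2 at 0.160 to 2.51 TPM and the BK subunit Kcnmb2 at 0 to 1.98 TPM. Kcnn1 (SK1), at 0.395 to 1.49 TPM, shared all values with another row of the table and is uncertain.

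Voltage-gated pores split in both directions. The most abundant at E15 was Kcnh7, an ERG-type channel of neurons, at 33.7 and 30.2 TPM, followed by 8.46 and 16.9 TPM at P3, with 2.52, 4.21 and 1.91 TPM in adult libraries. It descended without overlap between stages, and P3 replicate 3, the P3 library with more immature neuron marker RNA, was the higher of its pair, as for Kcnk10. The neuronal subunit gene Kcnmb4 and the dendritic channel gene Kcnd2 went the other way. Replicate 3 minus replicate 1 was -0.862 and -1.023 for them on the log2 scale. Any part of the marker RNA in these differences was not tested. Kcnh7 fell by a log2 change of 1.79 (SE 0.390, limma, BH-adjusted p = 0.0137) from P3 to the adult, a call lost without P3 replicate 3. From E15 to the adult it fell by 3.13 (SE 0.390, limma, BH-adjusted p = 0.000506). Kcnh7 alone made up 53.2% and 51.0% of voltage-gated TPM at E15. Its fall therefore offset, in the class sum of unscaled TPM, the rise of several other pores.

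Those that rose from E15 to the adult were 6 of the 20 pores, beside 15.4% of all genes. Of the 6, 2 (Kcnc4 and Kcng2) reached 1 TPM only in the adult. Kcna2, a delayed rectifier found along axons and at their ends, was 0.397 and 0.665 TPM before birth at E15, then 4.39 and 2.54 TPM by P3, and 11.6, 10.8 and 10.4 TPM in adults, with each stage above the last. Its log2 change was 1.45 (SE 0.345; limma, BH-adjusted p = 0.0197) from P3 to the adult, lost without P3 replicate 3 (limma, BH-adjusted p = 0.161), and 2.97 (SE 0.345; limma, BH-adjusted p = 0.000354) from E15. Kcnd2, a subthreshold A-type channel of dendrites, was 2.26 and 1.08 TPM in E15 libraries, 5.35 and 2.13 TPM in P3 libraries, and 9.39, 13.1 and 14.9 TPM in adult libraries. E15 and P3 overlapped and the adult stood above both. The log2 change was 1.57 (SE 0.429; limma, BH-adjusted p = 0.0325) from P3, lost without P3 replicate 3, Adult replicate 2 or Adult replicate 3 (limma, BH-adjusted p = 0.0663 to 0.245), with no filter or with a pseudocount of 0.1 TPM (limma, BH-adjusted p = 0.0835 and 0.0516), and 2.35 (SE 0.429; limma, BH-adjusted p = 0.00332) from E15.

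The other rising pores were lower in level. Kcnq3, a subunit of the M-current channel that steadies the resting potential, was 1.39 and 2.32 TPM before birth at E15, then 5.99 and 2.96 TPM by P3, and 6.84, 5.36 and 6.00 TPM in adults. All postnatal values exceeded E15, and the log2 change to the adult was 1.32 (limma, BH-adjusted p = 0.0250), lost without either E15 library or Adult replicate 1, or with no filter (limma, BH-adjusted p = 0.0525 to 0.167). Kcna6, a relative of Kcna2, was at most 0.0841 TPM at E15, 2.29 and 2.52 TPM at P3, with 4.93, 1.83 and 3.31 TPM in adult libraries, so that P3 and the adult overlapped and E15 stood apart (log2 change from E15 to the adult 1.95; limma, BH-adjusted p = 0.00579). Kcnc4, a fast A-type channel, had a listed value of 0 at E15 and stood at 0.750 and 0.275 TPM at P3, with 2.82, 1.72 and 2.32 TPM in adult libraries. Kcng2, a subunit that is silent alone and modifies other pores, was likewise listed at 0 at E15, was at most 0.183 TPM at P3, and reached 2.31, 2.62 and 0.682 TPM in the adult. Kcnc4 and Kcng2 met the minimum level only through adult libraries, so they too are given as values alone.

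Besides Kcnh7, 3 low pores fell from E15 to the adult, making 4 of 20 (20.0%, against 24.7% of all genes). Kcna3, a channel known from lymphocytes and microglia as well as neurons, was 1.41 and 2.06 TPM in E15 libraries, 1.18 and 1.65 TPM in P3 libraries and listed at 0 in all 3 adult libraries. E15 and P3 overlapped, and the adult passed against each (limma, BH-adjusted p = 0.00932 against E15 and 0.0274 against P3), with no fold given because the adult is at 0. The call against E15 was lost without E15 replicate 2 (limma, BH-adjusted p = 0.0903), and that against P3 without any of the E15 or P3 libraries or with a pseudocount of 5 TPM (limma, BH-adjusted p = 0.0526 to 0.177). Kcna3 and Kcna2 are neighbours on chromosome 3 in the RefSeq gene order and moved in opposite directions, whereas Kcna10, next to Kcna2, was below the minimum level. Kcnb2, a slow delayed rectifier, was 2.18 and 2.85 TPM in E15 libraries, 0.247 and 1.26 TPM in P3 libraries, and 0.0661, 0.431 and 0.590 TPM in adult libraries. It fell by 1.38 on the log2 scale from E15 to the adult (limma, BH-adjusted p = 0.0250), lost without either E15 library or Adult replicate 1, with a pseudocount of 0.1 TPM or with quantile normalization (limma, BH-adjusted p = 0.0542 to 0.151). Kcnh5, an EAG-type channel, was 0.930 and 1.88 TPM before birth at E15, then 0.696 and 1.68 TPM by P3, and 0, 0.165 and 0.0306 TPM in adults. Its fall of 1.149 on the log2 scale (limma, BH-adjusted p = 0.0388) was lost without E15 replicate 1 or any adult library (limma, BH-adjusted p = 0.0507 to 0.0796), and also with a pseudocount of 5 TPM, robust estimation or either other scaling (limma, BH-adjusted p = 0.0506 to 0.116). More rows were at 0 in adult libraries, 26.5% to 31.4%, than in the others, 19.0% to 21.2%, and TPM keeps no depth, so the reads behind a low adult value are unknown.

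The remaining voltage-gated pores did not pass in any comparison. Kcnq5, an M-current subunit, was 4.86 and 5.52 TPM in E15 libraries, 3.40 and 3.88 TPM in P3 libraries, and 15.4, 7.15 and 5.04 TPM in adult libraries, with Adult replicate 1 highest. Kcng4, another silent subunit, was listed at 0 at E15 and in P3 replicate 1, 0.106 TPM in P3 replicate 3 and 2.71, 1.89 and 0.393 TPM in the adult. Kcnd3, Kcnc1, Kcnc2, Kcnd1 and Kcng1 each stayed at or below 6.70 TPM in every library.

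Auxiliary subunits of voltage-gated channels were more abundant than the pores in every library. Their sums were 111 and 112 TPM against 63.4 and 59.2 TPM at E15, and 174 and 144 TPM against 49.4 and 48.1 TPM at P3. In the adult they were 144, 130 and 102 TPM against 80.5, 60.7 and 58.8 TPM. KChIP proteins bind calcium and bring A-type channels to the membrane. Kcnip1 was 41.4 and 44.6 TPM before birth at E15, then 48.2 and 46.0 TPM by P3, and 61.3, 65.1 and 46.9 TPM in adults, a narrow range in which P3 and the adult overlapped. It did not pass, and the 95% interval of its log2 change from E15 to the adult ran from -0.06 to 0.87. Kcnip3, which is also the transcriptional repressor DREAM, was 25.3 and 19.6 TPM in E15 libraries, 29.5 and 32.6 TPM in P3 libraries, and 35.8, 40.6 and 27.9 TPM in adult libraries, and did not pass either (log2 change from E15 to the adult 0.60; limma, BH-adjusted p = 0.0807). Kcnip4 rose from 0.857 and 1.199 TPM at E15 and 1.97 and 1.77 TPM at P3 to 5.58, 5.41 and 11.1 TPM in the adult, without overlap. Its log2 change was 1.98 (SE 0.398; limma, BH-adjusted p = 0.00511) from E15 and 1.48 (SE 0.398; limma, BH-adjusted p = 0.0307) from P3, the latter lost without any of the E15 or P3 libraries or Adult replicate 3, with no filter or in a fit on P3 and the adult alone (limma, BH-adjusted p = 0.0518 to 0.169). Kcnip2 was 0 and 0.171 TPM before birth at E15, then 2.40 and 0.137 TPM by P3, and 4.24, 1.53 and 3.98 TPM in adults. E15 and the adult did not overlap, and it rose by a log2 change of 1.90 over that span (limma, BH-adjusted p = 0.0246), lost without either E15 library, Adult replicate 1 or Adult replicate 3, or with no filter (limma, BH-adjusted p = 0.0562 to 0.127).

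Kcne1l, the X-linked subunit also called Kcne5, which damps KCNQ and other voltage-gated channels in expression systems, had another course. It was 40.6 and 36.7 TPM in E15 libraries, 84.5 and 58.4 TPM in P3 libraries, and 16.8, 10.1 and 5.14 TPM in adult libraries. The P3 libraries were highest and the adult lowest, without overlap. The estimate from E15 to P3 was 0.85 (SE 0.458; limma, BH-adjusted p = 0.305), so the higher P3 level did not pass. Against P3 the adult fell by 2.74 on the log2 scale (SE 0.418; limma, BH-adjusted p = 0.00316) and against E15 by 1.89 (SE 0.418; limma, BH-adjusted p = 0.00796), the latter lost without E15 replicate 1 (limma, BH-adjusted p = 0.0571). The cytoplasmic beta subunits Kcnab1, Kcnab2 and Kcnab3 and the subunit Kcne4 did not pass. Kcnab1 was 13.3 TPM in Adult replicate 1 and 1.99 to 3.53 TPM in the other libraries, and Kcne4 was the lowest of the 49 genes, at 0 to 1.19 TPM with 2 libraries over the minimum. Just outside the minimum, Kcne2 reached 3.38 TPM in Adult replicate 1 and 0.763 TPM at most elsewhere.

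**Figure D4:**
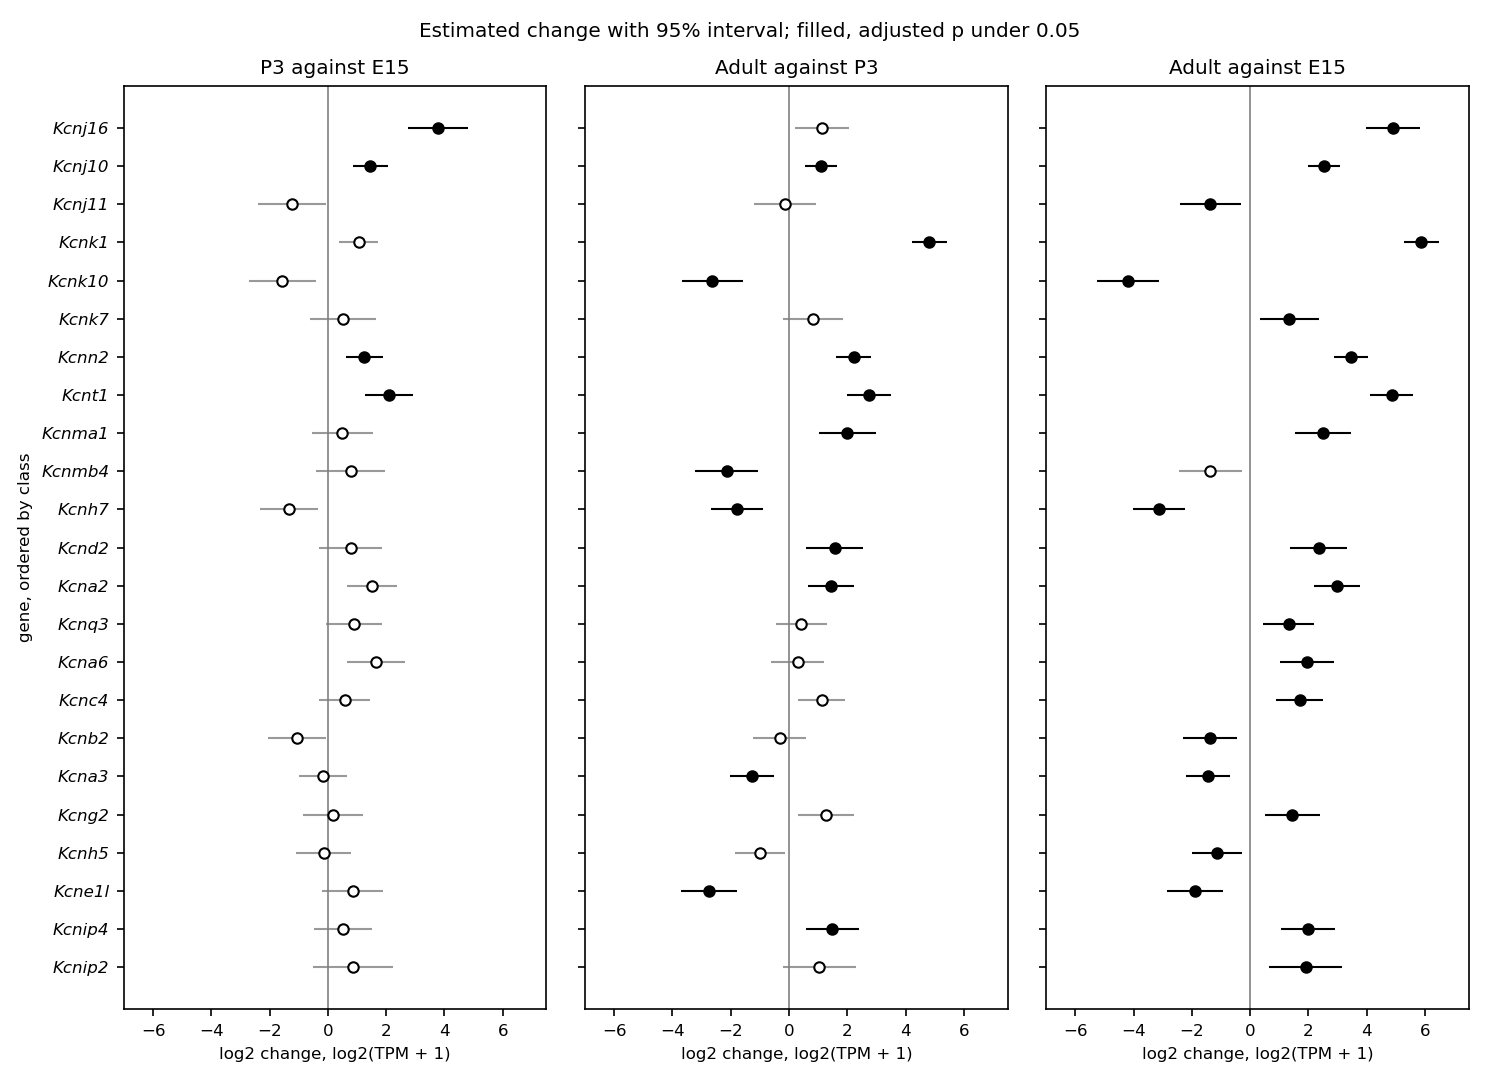
Log2 change with its 95% interval, on the log2(TPM + 1) scale, for the 23 potassium channel genes that passed in at least 1 comparison (rows, by class), with filled points where the BH-adjusted p was under 0.05. From E15 to P3 only Kcnj16, Kcnj10, Kcnn2 and Kcnt1 are filled, and Kcnk1 and Kcnk10 lie at opposite ends from E15 to the adult, at 5.88 and -4.20. Kcnk7, Kcnc4 and Kcng2 reached 1 TPM only in the adult.

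Genes that move potassium in other ways were set beside the channels. Of 17 genes for sodium-potassium pump subunits and cation-chloride cotransporters, 15 were tested. In the first step 6 rose and 0 fell (against 5.56% and 1.08% of all genes), in the second 3 rose and 1 fell (8.39% and 13.8%), and over the whole span 6 rose and 2 fell (15.4% and 24.7%). Atp1b2, a beta subunit of the pump, was 5.49 and 5.29 TPM before birth at E15, then 82.9 and 45.0 TPM by P3, and 375.5, 369.7 and 403.5 TPM in adults. Each stage lay above the one before, with log2 changes of 3.28 and 2.63 in the steps (limma, BH-adjusted p = 0.000454 and 0.000523). Fxyd1, a small regulator of the pump, rose by 2.70 and 4.53 (limma, BH-adjusted p = 0.00708 and 0.000311). Its relative Fxyd6, which was 127 and 110 TPM in E15 libraries, 516 and 275 TPM in P3 libraries, and 35.6, 61.8 and 59.5 TPM in adult libraries, rose by 1.66 and then fell by 2.87 (limma, BH-adjusted p = 0.0292 and 0.000941). Atp1b2 thus changed in the same direction as Kcnj10 in each step.

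Of the proteins that anchor or modify potassium channels, 12 of 18 rows were tested. The first step had 0 rising and 1 falling (against 5.56% and 1.08% of all genes), the second 2 rising and 0 falling (8.39% and 13.8%), and the whole span 5 rising and 1 falling (15.4% and 24.7%). Lgi1, a secreted protein that binds Kcna channel complexes, was 6.51 and 20.8 TPM before birth at E15, then 12.1 and 10.9 TPM by P3, and 99.95, 103.9 and 140.4 TPM in adults, with a log2 change of 3.16 from E15 to the adult (limma, BH-adjusted p = 0.000642). Amigo1, a partner of Kcnb pores, rose by 2.61 (limma, BH-adjusted p = 0.000800). Cntn2, the axonal contactin that clusters Kcna channels, fell by 2.69 (limma, BH-adjusted p = 0.00374). Of the 4 HCN channels, pacemaker relatives that also pass sodium, 1 (Hcn3) was tested and 0 passed in any comparison by limma, with Hcn3 at 0 to 1.68 TPM.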

How the data were processed

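RNA from 7 libraries was measured as TPM. The authors deposited 1 table of TPM, with a column for each library and 24978 gene rows. Per the labels' protocols, an RNeasy mini kit and a Bioanalyser served to extract and check the RNA. The submitters' processing notes name bcl2fastq, Bowtie and the build mm9, without versions. In the sources used here, the program that computed TPM is not given, nor its annotation. Column sums were 998450 to 999193, so depth is unknown, no count model was run and a value of 0 may be a failed estimate. The 15931 genes that 2 or more libraries held at 1 TPM or more were fitted as log2(TPM + 1), a pseudocount of 1, in limma 3.58.1 (R 4.3.3) with a mean-variance trend and stage as the only term, all 7 libraries together (4 residual and 4.27 prior degrees of freedom), with Benjamini-Hochberg adjustment over all of them. The fit was tested on simulated data. Samples were grouped by their labelled stage.

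The genes, classes and lists were chosen with earlier results of these data known. Classes follow gene symbols. Some genes that the naming rule takes are not reported here. Library values are given for genes that passed in any comparison, the 3 highest in each class and neighbours of a gene that passed; up to 4 genes of each other list are named. Kcne2, Kcne4 and the genes given by range were named after their values were seen. Promoters are RefSeq windows on GRCm38.p6, not the mm9 build of the libraries. Alternatives were pseudocounts of 0.1 and 5, no filter, a minimum mean of 5 TPM, scaling by median of ratios or by quantiles, limma without the trend or robust, a replicate block, fits on 2 stages, and leaving out each library. Added after seeing the data were a fit with identical rows tested once and another with neither Adult replicate 1 nor 3. Where a stage was left with 1 library, it was assumed to vary like the others.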

Additional observations from a re-analysis of the deposited data

How the results depend on the processing

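Of the 39 changes that passed, 18 passed under each alternative that could test them, and none of their 716 alternative values changed sign; 611 passed. From E15 to P3, 4 genes rose and 0 fell by limma. At an unadjusted p under 0.05 by limma, 5 were lower, beside 1794 of all 15931 genes tested. Fewer rose without either E15 library or P3 replicate 1, as did a smaller share of all genes. With no filter 1 gene fell, beside 0.749% of all genes, and the count of 0 did not hold without P3 replicate 3 either. From P3 to the adult, leaving out Adult replicate 1, 2 or 3 gave 8 rising genes each time and 5, 6 and 5 falling. Of all genes, 7.45%, 7.84% and 8.5% rose and 13.6%, 13.1% and 12.7% fell in these fits. Without P3 replicate 3, or without Adult replicates 1 and 3 together, both counts were lower, and so were both shares of all genes. From E15 to the adult, leaving out Adult replicate 1, 2 or 3 gave 11, 14 and 17 rising and 4, 7 and 5 falling genes. A mean of at least 5 TPM left 7 rising and 4 falling with fewer genes tested, beside 20.8% and 31.6% of all genes. Quantile normalization left 4 falling, beside 20.4% of all genes. Fewer channel genes fell without either E15 library, or without Adult replicates 1 and 3 together, as did a smaller share of all genes. Deviations from the stage means of same-numbered libraries correlated at -0.023 to 0.021. Libraries with different numbers were not compared, so these values cannot exclude a pairing or a batch. A fit with the replicate block gave 4 rising genes from P3 to the adult in place of 8, beside 5.84% of all genes in place of 8.39%. In it, 9 of the 39 changes did not pass. For the adult against P3 these were Kcna2, Kcna3, Kcnd2, Kcnip4 and Kcnj10. The others were Kcnh5, Kcnj11 and Kcnk7 for the adult against E15 and Kcnn2 for P3 against E15. With no filter, 8 of the 39 did not pass. The fit without Adult replicates 1 and 3 together rests on Adult replicate 2 alone for that stage, and could not test all of the 39. For the adult against P3 it lost Kcna2, Kcna3, Kcnd2, Kcnh7, Kcnip4, Kcnma1 and Kcnmb4. For the adult against E15 it lost Kcna3, Kcnb2, Kcnh5, Kcnip2, Kcnj11 and Kcnq3, and for P3 against E15 Kcnn2. Among the 29 genes followed under the alternatives, directions reversed only for log2 changes that had not passed. The adult against P3 was 0.053 for Kcnb2 and 0.12 for Kcnj11 under quantile normalization, and -0.263 for Kcna6 and 0.254 for Kcnj11 without Adult replicates 1 and 3 together. Leaving out 1 library at a time, the adult against P3 ran from -0.752 to 0.108 for Kcnb2 and from -0.754 to 0.495 for Kcnj11, and P3 against E15 from -0.026 to 0.43 for Kcnj3, -0.434 to 0.184 for Kcnh5, -0.1 to 0.312 for Kcnk2 and -0.475 to 0.769 for Kcnmb2. Kcnj3 was at -0.088 for P3 against E15 with the replicate block. Except where fewer genes or samples entered, the cause was not tested. Depth is unknown in TPM, so the precision of genes near 1 TPM cannot be stated.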

Other observations

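Potassium channel genes below the minimum level were not tested. Among the 9 inward rectifier rows left out, none exceeded 1.58 TPM in any library. Kcnj9 and Kcnj2, the RefSeq neighbours of Kcnj10 and Kcnj16, reached at most 0.949 and 0.718 TPM, in contrast to the levels of those genes. Kcna1, the RefSeq neighbour of Kcna6, was 1.93 TPM in Adult replicate 1 and 0.814 TPM at most in the other libraries. Kcnj8, which with Abcc9 forms the ATP-sensitive channel of mural cells, was 1.44 TPM in P3 replicate 3 and 0.4997 TPM in P3 replicate 1, and at most 0.289 TPM in the other stages.

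Some genes varied widely within the adult. Kcnj3, Kcnab1, Kcnq5 and Kcnd1 were each highest in Adult replicate 1, at 10.9, 13.3, 15.4 and 4.38 TPM, against 1.66, 2.76, 7.15 and 1.43 TPM in Adult replicate 2 and 3.46, 3.53, 5.04 and 0.486 TPM in Adult replicate 3. The mature neuron and mature oligodendrocyte marker sums were also highest in Adult replicate 1, but Adult replicate 3, which had higher sums than Adult replicate 2, was lower than it in Kcnq5 and Kcnd1. The part of these cells in the 4 genes was not tested.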
